A study of Mus musculus with 3 samples.

Results

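Immediate early and AP-1 genes, 10 in number, were followed through RNA-seq of 3 cell lines from mouse pancreatic tumours. They were chosen by name, as the table entries called Fos, Fosb, Fosl1, Fosl2, Jun, Junb, Jund, Egr1, Ier2 and Atf3. The choice was made with earlier results of these data known. All 10 were present among 22757 named genes, and all 10 were among the 11404 genes with a mean of at least 1 FPKM (fragments per kilobase of transcript, scaled to the size of the library) over the 3 libraries. The lines form the HI-Panc progression model, derived without immortalization from tumours of transgenic mice whose genotype includes p16-/-. One line stands for each stage, localized, invasive and metastatic, with 1 library per line, so a stage cannot be told apart from the line that represents it. Tissue labels name the body wall as the source of the localized line, the pancreas for the invasive and the liver for the metastatic one. Groups follow the stage labels, and every direction between lines holds as labelled. The medium of all lines was DMEM supplemented with fetal bovine serum (10%). The treatment text shared by the 3 samples describes 24 h of cobalt chloride, a chemical mimic of hypoxia, at 100 ng/ml. Whether the sequenced cells had received it is not stated, and an untreated partner was not analysed here. The question addressed was how expression changes along the stages within one engineered background.

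Immediate early genes are transcribed within minutes of a stimulus such as serum, growth factors or stress, without new protein synthesis, and their messages are short-lived. Several of them encode subunits of AP-1, a dimeric transcription factor built from a Fos and a Jun protein, or from 2 Jun proteins, held together by a leucine zipper. Signals through Ras and the ERK kinases switch on Fos and Egr1 through serum response factor and its ternary complex partners, and sustained ERK signalling is known to raise Fosl1. AP-1 has long been studied in pancreatic cancer.

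Upstream sequence is shown first for 4 of the genes because it holds matches to motifs bound by the proteins of this class of gene: half-sites of the cyclic AMP response element (CRE) before Fos, AP-1-like sites before Jun, and the motif of Egr proteins before Fosb and Fosl2. Sequences are from RefSeq (build GRCm38.p6). Each covers 250 bases before and 50 bases after a transcription start, and reads 5′ to 3′ on the strand of the gene. They lie at chr12:85473640-85473939 (Fos, plus strand), chr7:19309996-19310295 (Fosb, minus), chr5:32136222-32136521 (Fosl2, plus) and chr4:95052173-95052472 (Jun, minus). Capitals mark matches, on either strand, to the 9 motifs searched.
Fos: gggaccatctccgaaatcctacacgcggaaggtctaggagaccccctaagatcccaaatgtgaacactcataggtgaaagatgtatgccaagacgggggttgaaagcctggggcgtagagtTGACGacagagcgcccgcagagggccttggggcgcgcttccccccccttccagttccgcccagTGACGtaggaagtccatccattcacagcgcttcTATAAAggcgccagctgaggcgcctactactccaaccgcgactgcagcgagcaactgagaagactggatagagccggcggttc
Fosb: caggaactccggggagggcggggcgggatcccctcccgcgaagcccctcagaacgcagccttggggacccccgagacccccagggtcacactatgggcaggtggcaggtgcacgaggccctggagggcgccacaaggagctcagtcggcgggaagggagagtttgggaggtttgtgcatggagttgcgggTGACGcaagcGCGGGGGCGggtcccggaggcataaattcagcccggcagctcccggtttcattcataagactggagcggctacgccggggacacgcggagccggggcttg
Fosl2: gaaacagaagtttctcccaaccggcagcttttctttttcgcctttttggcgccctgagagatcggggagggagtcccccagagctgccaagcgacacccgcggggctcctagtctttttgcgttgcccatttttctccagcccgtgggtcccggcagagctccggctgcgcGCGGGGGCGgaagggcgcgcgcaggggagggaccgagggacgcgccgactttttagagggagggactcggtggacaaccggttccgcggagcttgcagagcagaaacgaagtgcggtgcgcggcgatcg
Jun: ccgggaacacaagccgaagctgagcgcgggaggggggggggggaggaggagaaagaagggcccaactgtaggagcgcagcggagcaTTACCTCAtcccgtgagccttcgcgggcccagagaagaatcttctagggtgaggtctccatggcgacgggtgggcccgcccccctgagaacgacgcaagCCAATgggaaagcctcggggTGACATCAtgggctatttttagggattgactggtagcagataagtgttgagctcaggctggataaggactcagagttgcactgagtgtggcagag

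Of the 10 genes, 7 had an entry in this promoter table; those without were Fosl1, Egr1 and Ier2. The Fos window held the CRE half-site TGACG 129 and 66 bases before the start and TATAAA 33 bases before it. The Jun window held TTACCTCA at 164, CCAAT at 65 and TGACATCA at 45 bases before the start. The Egr motif GCGGGGGCG began 50 bases before the Fosb start and 79 bases before the Fosl2 start, and Fosb also held TGACG at 60 bases. Among the windows not printed, Junb held TGACG at 106 and CCAAT at 36 bases before the start, and TATAAA at the start. Atf3 held TGACG 7 bases before the start and CCAAT just after it, both on the opposite strand. Jund held no match. Among 32851 promoters of the same length, 20.8% held TGACG, 13.6% TATAAA, 37.4% CCAAT, 0.889% TTACCTCA, 3.62% TGACATCA and 2.91% GCGGGGGCG. The full CRE TGACGTCA, which contains TGACG and was present in 1.79% of all promoters, the AP-1 site TGACTCA (5.20%) and the CArG box of serum response factor (1.63%) had no match in the 7 windows. These matches describe letters in a short window and were not tested as binding sites.

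The 3 libraries summed to between 565287 and 575446 FPKM. The deposited table gives no counts, but low values fell on steps of whole fragments, from which depths of 45900000, 41100000 and 44000000 fragments were estimated for the localized, invasive and metastatic libraries. Differences are on the log2(FPKM + 1) scale, where the fold of a low gene comes out too small, and a gene was called higher or lower where 2 libraries differed by at least 1 on that scale (2-fold). With 1 library per line there is no replicate error and no test. Intervals given with ratios are 95% counting intervals from the estimated fragments, so they cover counting error only and not the spread between cultures. In bulk RNA, fewer cells expressing a gene and less RNA per cell cannot be told apart.

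Against the localized library, the invasive library had higher Fos, Ier2 and Egr1 and lower Fosl1. These were 3 genes higher and 1 lower out of 10, where 8.78% of all genes counted were higher and 6.07% lower. The metastatic library had 1 gene higher than the localized library (Fos) and 3 lower (Egr1, Jun and Fosl1), against 9.08% and 7.29% of all genes. Both comparisons share the localized library. The comparison of metastatic with invasive, given next, reuses the other libraries, so its differences follow from those above and are not a separate result. Fos, Ier2 and Egr1, higher in the invasive than in the localized library, are called again there. The metastatic library had no gene higher and 4 lower than the invasive library (Egr1, Fos, Ier2 and Jun). In that pair only 1.33% of all genes were higher and 1.67% lower. The median difference of the 10 genes was 0.38 between the invasive and localized libraries, -0.18 between the metastatic and localized libraries and -0.76 between the metastatic and invasive libraries. Over all genes the medians of these pairs were -0.0014, 0.0041 and -0.0086.

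**Figure D1:**
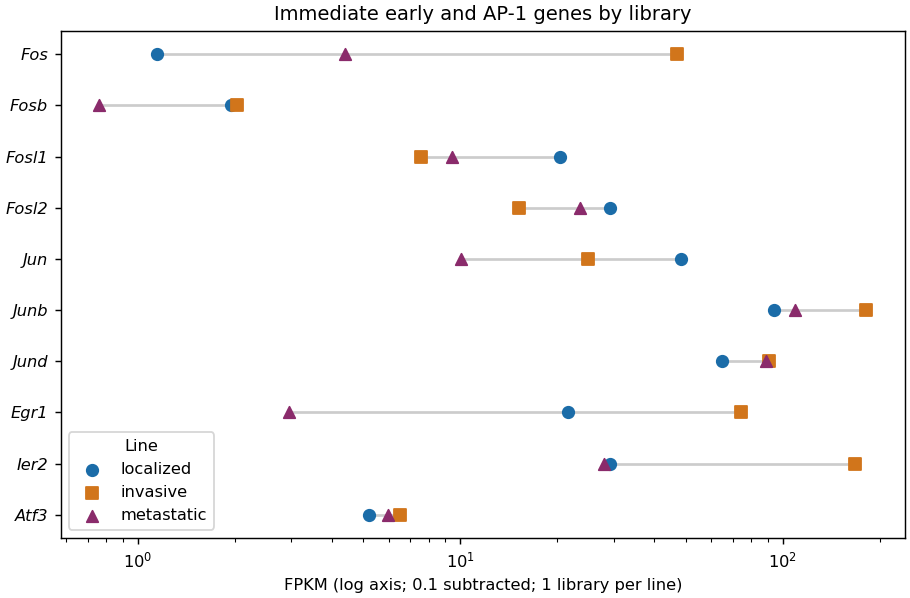
Level of each of the 10 genes in FPKM (log axis) in the localized (circle), invasive (square) and metastatic (triangle) library; each point is 1 library and grey lines join the lowest and highest. Fos spans 1.15 to 47.1 FPKM and Egr1 2.96 to 74.4 FPKM, whereas Atf3 stays between 5.22 and 6.52 FPKM.

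Fos, the prototype immediate early gene and the most inducible Fos subunit (ENSMUSG00000021250.13, GRCm38 chr12:85473890-85477273, plus strand), had 1.15 FPKM in the localized, 47.1 FPKM in the invasive and 4.39 FPKM in the metastatic library. It was near the bottom of the genes counted in the localized library (percentile 4.87) and well above the middle in the invasive library (percentile 82.9). The values rest on about 102, 3735 and 369 fragments. The invasive level was 40.9 times the localized level (interval 33.4 to 50.03) and 10.7 times the metastatic level (9.63 to 11.97). The metastatic level was in turn 3.81 times the localized level (3.04 to 4.77). On the log2 scale the invasive library differed from the localized by 4.48 and the metastatic from the localized by 1.32. The metastatic library differed from the invasive by -3.16, the sixth lowest of 11404 genes.

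Fosb, a close relative of Fos whose transcripts also give a truncated stable form (ENSMUSG00000003545.3, chr7:19302696-19310051, minus strand), was low throughout. It had 1.95 FPKM in the localized, 2.03 FPKM in the invasive and 0.760 FPKM in the metastatic library. The first pair differed by less than counting error (ratio 1.04, interval 0.887 to 1.22). The invasive level was 2.68 times the metastatic level (2.15 to 3.33), yet the difference was -0.79 in log2(FPKM + 1), short of the threshold. With a pseudocount of 0.1 it passed, at -1.31, and so did metastatic against localized, at -1.25 in place of -0.75.

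Fosl1 and Fosl2 encode Fra-1 and Fra-2, Fos relatives without the strong activation domain of Fos that accumulate later and persist longer. Their order was the opposite of that of Fos, with the localized library highest and the invasive lowest. Fosl1 (ENSMUSG00000024912.6, chr19:5447547-5455946, plus strand) had 20.4 FPKM in the localized, 7.55 FPKM in the invasive and 9.44 FPKM in the metastatic library. Its localized level was 2.69 times the invasive (2.44 to 2.98) and 2.16 times the metastatic level (1.97 to 2.36), with log2 differences of -1.32 and -1.03. Fosl2 (ENSMUSG00000029135.10, chr5:32135801-32157842, plus strand) had 29.2 FPKM in the localized, 15.3 FPKM in the invasive and 23.6 FPKM in the metastatic library. None of its differences reached 2-fold, the furthest being -0.89 for invasive against localized.

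The Fosl1 values carry a limit of annotation. Ccdc85b lies on the opposite strand, and 1163 bases of its exons coincide with 62.4% of the longest Fosl1 transcript. It had 42.2 FPKM in the localized, 13.9 FPKM in the invasive and 16.0 FPKM in the metastatic library, the same order as Fosl1. No source used here says whether the authors' quantification used strand, and the part of Ccdc85b reads in the Fosl1 values was not tested. An antisense gene absent from the genes analysed here, Gm11175, likewise covers 52.6% of the Jund transcript.

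**Figure D2:**
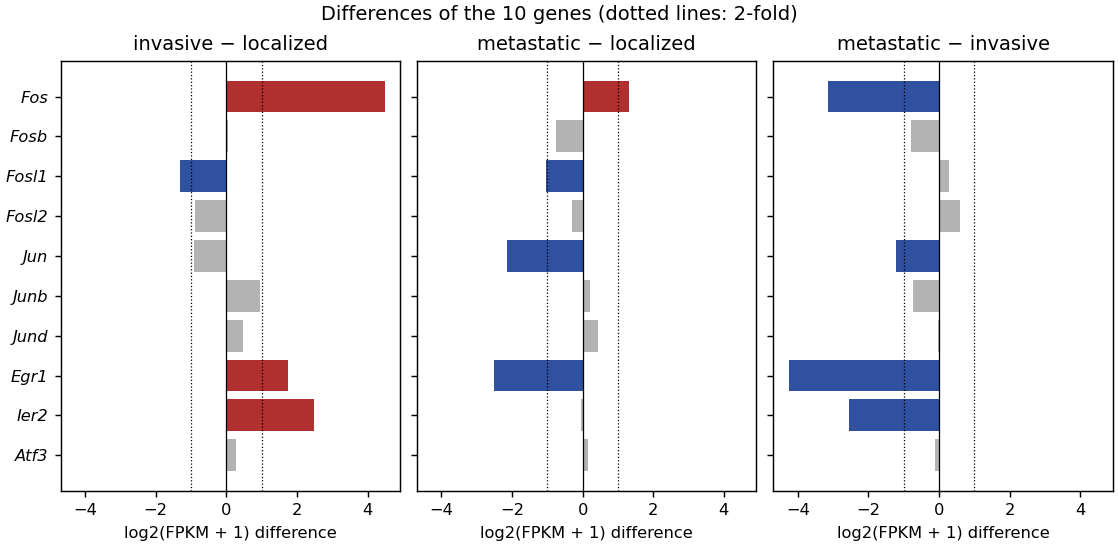
Difference of each gene in log2(FPKM + 1) for the 3 pairs of libraries, first named minus second; red bars are at least 2-fold higher, blue bars at least 2-fold lower and grey bars within 2-fold (dotted lines). Egr1 has 1.74, -2.52 and -4.25 in the panels from left to right, and Fosl1 is below -1 in both comparisons with the localized library.

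Jun was highest in the localized library, and both of its relatives were highest in the invasive library. Jun, the subunit that forms the most active AP-1 dimers with Fos (ENSMUSG00000052684.4, chr4:95049034-95052222, minus strand), had 48.3 FPKM in the localized, 24.9 FPKM in the invasive and 10.1 FPKM in the metastatic library, so that each later stage as labelled had less. The localized level was 4.78 times the metastatic level (4.51 to 5.08) and 1.94 times the invasive level (1.86 to 2.03), and the invasive level was 2.47 times the metastatic level (2.31 to 2.63). In log2(FPKM + 1) the differences were -2.15, -0.93 and -1.22, so that only the step from localized to invasive stayed within 2-fold.

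Junb, which can restrain Jun and is itself an immediate early gene (ENSMUSG00000052837.6, chr8:84974484-84978718, minus strand), was the most abundant of the 10 in each library. It had 93.7 FPKM in the localized, 182 FPKM in the invasive and 109 FPKM in the metastatic library, and the invasive library was 1.94 times the localized (1.88 to 1.995), a log2 difference of 0.95 just inside the threshold. Jund, the subunit usually held at a steady level (ENSMUSG00000071076.6, chr8:70698949-70700616, plus strand), had 64.7 FPKM in the localized, 90.6 FPKM in the invasive and 88.6 FPKM in the metastatic library. The last pair could not be told apart by counting (ratio of metastatic to invasive 0.978, interval 0.942 to 1.01), and no pair of libraries differed by 2-fold in Junb or Jund.

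FPKM is a level per transcript length, so the subunits of a family can be set side by side. The overlaps with genes on the opposite strand given above for Fosl1 and Jund limit this for those genes, and for the family sums and shares. The 4 Fos family genes summed to 52.7 FPKM in the localized, 71.98 FPKM in the invasive and 38.2 FPKM in the metastatic library. Fos held 2.19% of that sum in the localized, 65.5% in the invasive and 11.5% in the metastatic line. Fosl2 was instead the largest share in the localized (55.5%) and metastatic (61.8%) libraries and held 21.2% in the invasive one, while Fosl1 held 38.6%, 10.5% and 24.7% in the order localized, invasive, metastatic. The 3 Jun family genes summed to 207, 297 and 208 FPKM in the same order. Junb held the largest share in each library, with 45.4%, 61.1% and 52.5%, and the share of Jun was 23.4%, 8.38% and 4.86%. Shares of message say nothing of which dimers formed.

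**Figure D3:**
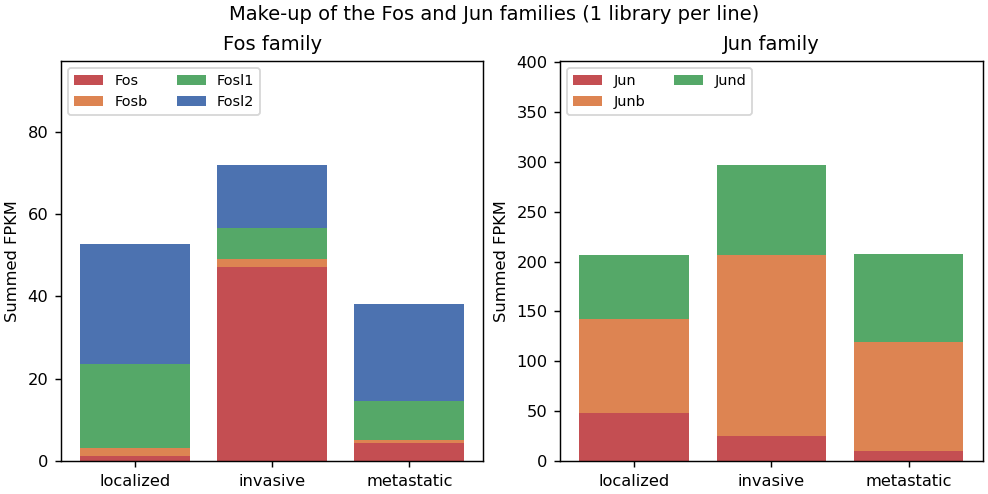
Summed FPKM of the Fos family (left) and Jun family (right) in each library, with each gene as a coloured segment; 1 library per line and no error bars. Fos makes up 65.5% of the Fos family in the invasive library, and Fosl2 is the largest segment in the localized and metastatic libraries.

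Egr1, a zinc finger transcription factor induced through serum response elements (ENSMUSG00000038418.7, chr18:34859823-34864984, plus strand), had 21.7 FPKM in the localized, 74.4 FPKM in the invasive and 2.96 FPKM in the metastatic library. It was highest where Fos was highest, but its lowest library was the metastatic one, while that of Fos was the localized one. The invasive level was 25.2 times the metastatic (23.1 to 27.5) and 3.44 times the localized level (3.32 to 3.56), and the localized level was 7.33 times the metastatic level (6.71 to 8.02). The log2 difference of -4.25 for metastatic against invasive was the second lowest of all genes counted.

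Ier2, a short nuclear protein encoded by a gene of 1 exon (ENSMUSG00000053560.4, chr8:84661331-84662852, minus strand), had 29.2 FPKM in the localized, 167 FPKM in the invasive and 28.0 FPKM in the metastatic library. The invasive library stood above the other two, by 5.72 times for the localized (5.44 to 6.02) and 5.97 times for the metastatic library (5.67 to 6.30). The localized and metastatic libraries did not differ beyond counting error (ratio of metastatic to localized 0.958, interval 0.895 to 1.03). Its log2 difference for metastatic against invasive was -2.54, rank 13 from the lowest.

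Atf3, a stress-induced factor that pairs with Jun proteins and mostly represses (ENSMUSG00000026628.13, chr1:191170296-191218039, minus strand), had 5.22 FPKM in the localized, 6.52 FPKM in the invasive and 5.97 FPKM in the metastatic library. On the log2 scale it differed from the localized library by 0.27 in the invasive line and by 0.17 in the metastatic line, and the metastatic differed from the invasive by -0.11. The metastatic and invasive libraries did not differ beyond counting error (ratio 0.917, interval 0.806 to 1.04).

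**Figure D4:**
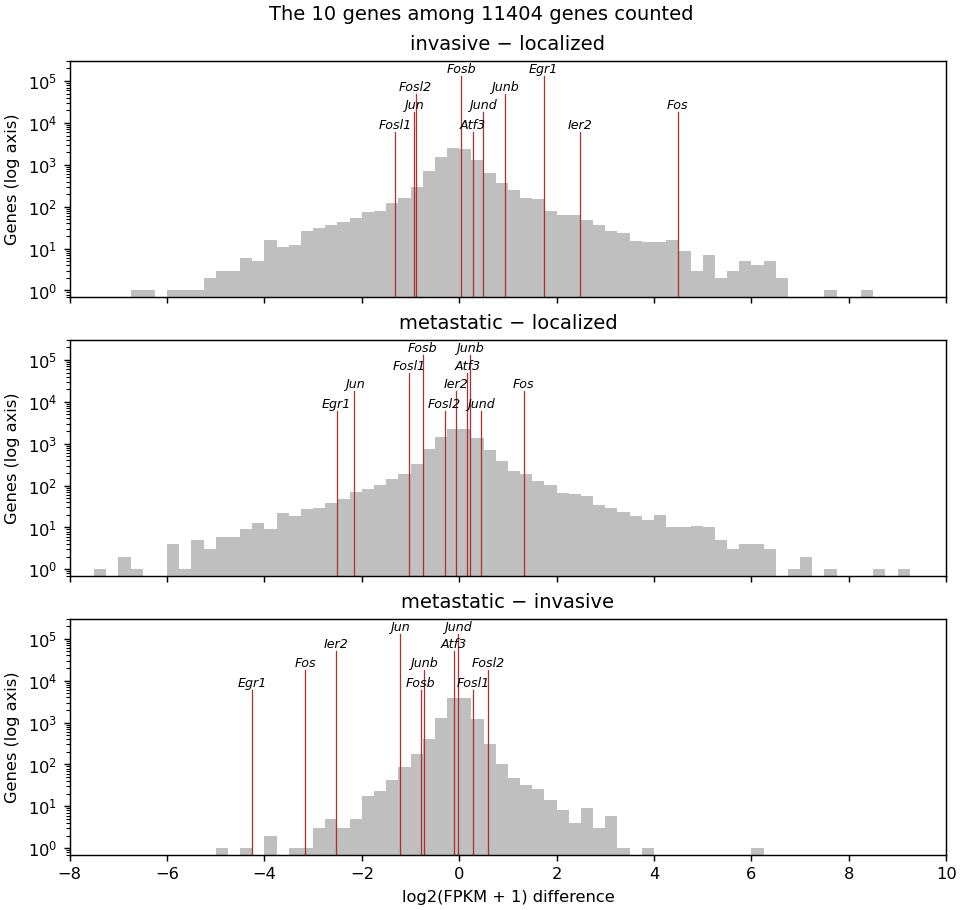
Number of genes (grey, log axis) by difference in log2(FPKM + 1) for the 3 pairs of libraries, over 11404 genes, with red lines at the 10 named genes. In the bottom panel Egr1 (-4.25), Fos (-3.16) and Ier2 (-2.54) lie in the sparse left tail.

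The genes with the pattern nearest to that of Fos were found by the distance between log2(FPKM + 1) values centred on their mean over the 3 libraries. They were Ckb, Mal, Pitx1, Selp and Tbc1d10c, at distances of 0.78, 0.91, 0.95, 1.05 and 1.11. The nearest of the other 9 genes was Ier2 at 1.45, followed by Junb at 2.56 and Egr1 at 2.80. Ckb, brain-type creatine kinase, had 3.48, 46.2 and 7.33 FPKM from the localized to the metastatic line. Near to Egr1 were Eif3j1, Krt14, Krt23 and Plxnb1, at 1.19 to 1.43, with Ier2 at 1.78. Nearest to Fosl1 were Cish, Vasn, Tm4sf1, Nexn and Bdh2, at 0.02 to 0.04, with Fosl2 at 0.52. Fos and Fosl1 were 4.13 apart. With 3 values per gene these distances only describe the profiles.

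Other immediate early genes went in both directions against the localized library. Of 36 other immediate early genes, 31 passed the filter on low values. In the invasive against the localized library 5 were higher and 2 lower, and in the metastatic against the localized library 2 were higher and 5 lower. None was higher and 4 were lower in the metastatic than in the invasive library. Over all genes, 8.78% were higher and 6.07% lower in the first pair, 9.08% and 7.29% in the second, and 1.33% and 1.67% in the third. The list medians were 0.15, -0.15 and -0.30 in these 3 pairs, beside medians over all genes within 0.01 of 0. Btg2, an antiproliferative gene, had 5.10 FPKM in the localized, 35.4 FPKM in the invasive and 23.0 FPKM in the metastatic library. Ier3, a survival factor, had 143, 469 and 339 FPKM in the same order. Sgk1, a serum- and glucocorticoid-regulated kinase, went the other way with 113, 4.80 and 1.62 FPKM, as did the stress gene Gadd45b with 18.0, 3.86 and 2.77 FPKM. Besides Sgk1, the 4 that were lower at the metastatic step, chosen after their values were seen, included Cyr61 (48.2 FPKM in the invasive against 17.9 FPKM in the metastatic library), Ctgf (91.9 against 37.8 FPKM) and the mRNA decay factor Zfp36 (21.9 against 10.002 FPKM). Myc, also chosen after its values were seen, had 59.1, 57.6 and 49.6 FPKM and was within 2-fold in each pair.

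Regulators that feed back on ERK had 15 of 17 genes past the filter. Of these 3 were higher and 0 lower in the invasive than in the localized library, 2 were higher and 0 lower in the metastatic than in the localized library, and 0 were higher and 1 was lower in the metastatic than in the invasive library. Dusp1, a phosphatase induced as an immediate early gene, had 11.5 FPKM in the localized, 33.8 FPKM in the invasive and 13.3 FPKM in the metastatic library, highest in the invasive library as Fos and Ier2 were. Spry1, an inhibitor of receptor signalling to Ras, had 2.33, 15.3 and 22.3 FPKM, and Spry4 had 6.51, 16.2 and 14.0 FPKM. Spry4 lay at the threshold between the metastatic and localized libraries (1.00 in log2), and 1 gene in place of 2 was higher there once values were centred on the median of all genes. The medians of this list were 0.34, -0.17 and -0.21. In the same order of pairs, the shares of all genes higher and lower were 8.78% and 6.07%, 9.08% and 7.29%, and 1.33% and 1.67%. Dusp6, an ERK phosphatase that reads out ERK activity, was within 2-fold with 87.3, 144 and 124 FPKM.

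Kinases and factors upstream of the 10 were counted in the same way. Of 24 of 25 genes of the MAP kinase cascade past the filter, 2 were higher in the invasive than the localized library, and the same genes, Map2k6 (11.9, 57.1 and 44.3 FPKM) and Rps6ka1 (9.07, 49.9 and 62.4 FPKM), were higher in the metastatic than the localized library. Over all genes 8.78% and 9.08% were higher in these pairs, close to the share of this list. None was lower in either pair, and none differed by 2-fold between the metastatic and invasive libraries. The shares of all genes lower were 6.07% and 7.29% in the comparisons with the localized library. Between the metastatic and invasive libraries 1.33% of all genes were higher and 1.67% lower. Mapk3, which encodes ERK1, had 226, 233 and 202 FPKM. None of 9 serum response factor, ternary complex and CREB genes differed by 2-fold in any pair. Among them Elk3 had 51.0, 49.3 and 35.8 FPKM. Medians of the kinase list were 0.09, 0.03 and 0.01, and those of the factors -0.04, -0.01 and -0.06.

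Of 19 of 22 other leucine zipper genes past the filter, 1 was higher and 1 lower in each comparison with the localized library, and Batf2 alone was lower in the metastatic than in the invasive library (3.03 and 0.965 FPKM). Bach1, a repressor of antioxidant genes, had 3.77, 10.9 and 9.73 FPKM, and Maf had 7.80, 0.819 and 0.465 FPKM. The medians of the zipper list were 0.20, 0.03 and -0.14. Of the stress genes, a list for the integrated stress response, all 14 passed the filter. Of them 3 were higher and 0 lower in the invasive than in the localized library, and 2 higher and 1 lower in the metastatic than in the localized library. None differed by 2-fold between the metastatic and invasive libraries. Chac1 had 5.14, 18.1 and 10.9 FPKM and Ddit4 39.2, 110 and 89.1 FPKM, while Atf3 itself was within 2-fold. The stress list had medians of 0.22, 0.13 and -0.23, and it shares some genes with the zipper list. Beside the counts of both lists, 8.78% of all genes were higher and 6.07% lower in the invasive than in the localized library. The shares were 9.08% and 7.29% for metastatic against localized, and 1.33% and 1.67% for metastatic against invasive.

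Genes known as AP-1 targets did not move one way. Of 23 of 25 past the filter, 3 were higher and 6 lower in the invasive than in the localized library, and 1 was higher and 8 lower in the metastatic than in the localized library. None differed by 2-fold between the metastatic and invasive libraries, the pair in which Fos and Jun were both lower, although with a pseudocount of 0.1 the number lower was 4. Mmp3, a matrix-degrading protease, had 24.1 FPKM in the localized, 0.733 FPKM in the invasive and 0.213 FPKM in the metastatic library. The protease inhibitor Timp1 had 188, 57.7 and 34.3 FPKM and fibronectin, Fn1, 928, 285 and 171 FPKM. Itga2, a collagen-binding integrin, went the other way with 2.84, 64.1 and 56.3 FPKM. List medians were 0.04, -0.20 and -0.38. Of all genes counted, 8.78% were higher and 6.07% lower in the invasive than in the localized library. For metastatic against localized these shares were 9.08% and 7.29%, and for metastatic against invasive 1.33% and 1.67%. The lists were drawn up from general knowledge, and targets and stress genes respond to many factors besides AP-1.

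**Figure D5:**
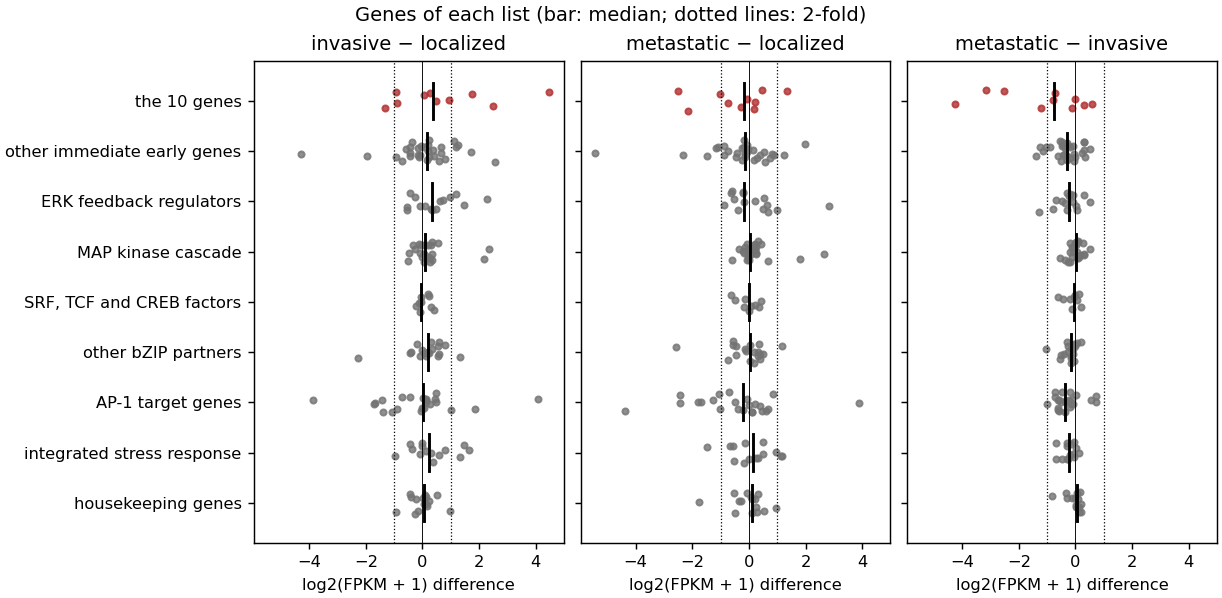
Difference in log2(FPKM + 1) of each gene past the filter, by list (rows) and pair of libraries (panels, first named minus second); the 10 genes are red, black bars are list medians and dotted lines mark 2-fold. In the metastatic against invasive panel Egr1 is the lowest of the 10 genes, at -4.25. In that panel 0 of 24 genes of the MAP kinase list pass 2-fold. Over all genes counted 1.33% were higher and 1.67% lower in that pair.

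Identity markers differed between the same libraries. Summed over 10 epithelial markers, the level was 1196 FPKM in the localized, 6281 FPKM in the invasive and 6786 FPKM in the metastatic library. Nearly all of it came from the keratins Krt8, Krt18, Krt19 and, outside the localized library, Krt7. Cdh1 had 20.7, 218 and 118 FPKM in the same order. Epcam, Cldn4, Cldn7, Esrp1 and Ovol1 reached at most 2.63 FPKM, that of Epcam in the metastatic library. Summed over 10 fibroblast markers, the level was 565, 90.5 and 13.9 FPKM. Of the 10 fibroblast markers, 0, 1 and 4 were at 0 in the order localized, invasive, metastatic. Fosl1, Fosl2, Jun and the fibroblast markers were highest in the localized library; the part of cell identity in the values of the 10 genes was not tested. Leukocyte markers summed to 4.93, 12.6 and 15.2 FPKM, nearly all of it Cd68 (4.82, 10.5 and 9.93 FPKM) and Laptm5, and Ptprc, the pan-leukocyte marker, reached at most 0.197 FPKM. Endothelial markers summed to at most 0.633 FPKM. Acinar markers summed to 7.70, 1.23 and 0.465 FPKM and hepatocyte markers to 6.53, 1.15 and 0.503 FPKM, mainly from Cela1 and Trf, while Cpa1 and Amy2a5 were at 0 in each library. Of 15 housekeeping genes, 0 differed by 2-fold except B2m, which was lower in the metastatic than in the localized library (546 against 1868 FPKM). Just inside the threshold were B2m for invasive against localized (-0.95 in log2) and Tfrc in both comparisons with the localized library (0.96 and 0.95). Of all genes counted, 8.78% were higher and 6.07% lower for invasive against localized, and 9.08% and 7.29% for metastatic against localized. For metastatic against invasive the shares were 1.33% and 1.67%.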

How the data were processed

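The table deposited by the authors holds FPKM per gene for 3 libraries, 1 per line. Per the labels' protocols, total RNA (1 ug, Trizol) went into TruSeq RNA libraries. Per the submitters' processing notes, STAR 2.5.2a, FastQC 0.11.2, Cufflinks 2.2.1 and build GRCm38 were used; roles, annotation and strand are not given in the sources used here. The lowest value was 0.1 in each column, read as 0.1 added, and 0.1 was subtracted. Of 22784 entries, 27 carried a date number in place of a symbol and were left out, as were 2 short or ribosomal RNA genes.

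Computations used Python 3.11.15, numpy 2.4.6, pandas 2.3.3 and scipy 1.17.1. Depth was estimated from low values of genes with 1 GENCODE M21 transcript: with 180 to 200 bases subtracted from each length, 77.5% to 80.7% of values lay within 0.1 of a whole fragment, against 20.0% if evenly spread. Fragments of the 10 genes were estimated from their longest transcript, and ratio intervals are exact conditional binomial. Depth and differences were tested on simulated data. The simulated depth used genes with 1 transcript and the simulated differences were large. Genes with several transcripts and calls near 2-fold were therefore not covered. No test between lines was possible.

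The 10 genes, the lists and the rules were chosen with earlier results of these data known. All 10 genes were named; from other lists, up to 4 with the largest difference and the most abundant. For Fos, Fosl1 and Egr1 the 5 nearest named genes outside the 10 were taken. Of the genes these rules name, 2 are not reported here. Alternatives were a pseudocount of 0.1, no filter, 0.1 not subtracted, centring on the median and a 1.5-fold threshold.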

Additional observations from a re-analysis of the deposited data

How the results depend on the processing

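Of 30 differences of the 10 genes, 30 kept their direction and their side of 2-fold with no filter, with 0.1 not subtracted and with centring on the median, which shifted all genes by at most 0.01 in log2. With a pseudocount of 0.1, 28 did; the other 2 were those of Fosb against the metastatic library. With the threshold at 1.5-fold, 3 of the 10 genes were lower in the invasive than the localized library in place of 1 (Fosl1, joined by Fosl2 and Jun). In that pair 4 were higher in place of 3, with Junb added. In the metastatic against the localized library 4 were lower in place of 3, with Fosb added. Between the metastatic and invasive libraries 1, Fosl2, was higher in place of 0, and 6 were lower in place of 4, with Fosb and Junb added. Over all genes, that threshold gave 1727 higher and 1361 lower between the invasive and localized libraries, 1816 and 1607 between the metastatic and localized libraries, and 400 and 610 between the metastatic and invasive libraries. A pseudocount of 0.1 gave 373 genes lower in the metastatic against the invasive library, in place of 191. Spry4 sat at the threshold for metastatic against localized, so that the ERK feedback genes numbered 1 higher in place of 2 when 0.1 was not subtracted or values were centred. Of 84 counts over the other lists, 29 moved by over 1.5 times with the 1.5-fold threshold, 7 with a pseudocount of 0.1 and 0 without the filter. No paired analysis was possible because each line has 1 library. Depth limited Fos in the localized library most, at about 102 fragments.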
